A study of Mus musculus with 7 samples.

Results

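Acetylation of histone H3 at lysine 27 (H3K27ac) is placed by p300 and CBP on the nucleosomes around active promoters and enhancers, while dimethylation at lysine 4 (H3K4me2) marks promoters and enhancers that are active or poised. Cartilage cells build a matrix of fibrillar collagen and aggrecan, and Sox9, with its partners Sox5 and Sox6, drives the genes for that matrix. Promoters that carried H3K27ac in primary mouse chondrocytes and lacked it in dermal fibroblasts were described here. A promoter was the 1 kb on each side of the transcription start site (TSS) of a protein-coding gene, and it counted as marked when a peak of a deposited list reached into it. The rule asked for a peak in both chondrocyte H3K27ac replicates and for none in the fibroblast list. Peaks of replicate 1 marked 44.2% of the 18089 promoters compared, those of replicate 2 43.1% and those of fibroblasts 47.5%, and 299 promoters met the rule (1.65%). They were chosen by the presence of peaks in these 3 libraries, so those peaks are given as a description. These 299 are called chondrocyte-acetylated promoters. The comparison set was the 6668 promoters marked in both chondrocyte replicates and in fibroblasts, called shared promoters.

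The study mapped these marks by ChIP-Seq, the sequencing of DNA precipitated with an antibody to the mark, in order to find enhancers of Sox9. Chondrocytes were taken from the ribs of newborn mice, with 2 H3K27ac replicates and 1 H3K4me2 library, and dermal fibroblasts, used as the negative control, had 1 H3K27ac library. A further H3K27ac library came from chondrocytes of WT C57BL/6J mice and another from E160Δ/Δ E308Δ/Δ littermates, in which the Sox9 enhancers E160 and E308 had been removed from both alleles with CRISPR/Cas9. E308 was deleted in a further round of editing, in oocytes that already carried the E160 deletion. Replicate 2 carried GRCm38 positions, unlike the mm9 positions of the remaining lists, and each list was read against gene positions of its own build. The lists carry no read numbers and the depth of the libraries is unknown. No group but the chondrocyte H3K27ac replicates had more than 1 library, so no p-value is given. All shares carry an exact binomial (Clopper-Pearson) 95% interval, which treats promoters as independent and covers counting error alone. A peak that is missing from a list could reflect a shallower library, a difference in how peaks were called or less of the mark. These cannot be told apart. In these bulk samples, fewer cells with the mark and less of it per cell cannot be told apart either.

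The cell labels were checked at the promoters of marker genes. Of 12 chondrocyte markers compared, 8 had a peak in replicate 1, 11 in replicate 2 and 1 in fibroblasts. Of 9 dermal fibroblast markers, 6 had a peak in fibroblasts, 3 and 5 in replicates 1 and 2, and 7 and 6 in the WT and deletion lists, so the chondrocyte lists did not lack them. The 3 of replicate 1 were Col1a1, Col1a2 and Col3a1, which had no fibroblast peak. Endothelial, keratinocyte, skeletal muscle and blood markers had 0 promoter peaks in both chondrocyte replicates. Sox9 and Col2a1, the genes that best define a chondrocyte, were not among the 299. Replicate 1 had no peak at either promoter, with its nearest peak 15.2 kb from the Sox9 TSS and 3.6 kb from that of Col2a1, and Sox9 had a fibroblast peak over its TSS. Replicate 2, WT and the deletion list marked both promoters, and WT peaks covered 100% of Sox9 and 93.0% of Col2a1. Promoter peaks of replicate 1 were at most 8181 bp wide, and whether this bears on its missing peaks was not tested. The paper describes strong chondrocyte peaks at both genes, so the deposited list of replicate 1 differs from that description.

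Promoter sequence was set beside the marks because it played no part in the choice of promoters. In mammals, promoters of broadly used genes often lie in CpG islands, stretches rich in CG dinucleotides, whereas tissue-restricted promoters more often do not. The 250 bases before the TSS are shown for 5 chondrocyte-acetylated promoters in mm9, 5′ to 3′ on the strand of the gene, with every CG dinucleotide in capitals. Acan (chr7:86198119-86198368, + strand) encodes aggrecan, the main proteoglycan of cartilage, and is shown as a CpG-rich matrix promoter. Part of its window lies in a noncoding transcript on the opposite strand. Col9a1 (chr1:24184199-24184448, + strand), for a chain of type IX collagen, has no CG in its window. Hapln1 (chr13:89679991-89680240, + strand), for the link protein that ties aggrecan to hyaluronan, and Mgp (chr6:136824327-136824576, - strand), for matrix Gla protein, an inhibitor of calcification, are CpG poor. Rrp12 (chr19:41970644-41970893, - strand), for a ribosome biogenesis factor, is shown as a promoter of a housekeeping gene in the set.
Acan: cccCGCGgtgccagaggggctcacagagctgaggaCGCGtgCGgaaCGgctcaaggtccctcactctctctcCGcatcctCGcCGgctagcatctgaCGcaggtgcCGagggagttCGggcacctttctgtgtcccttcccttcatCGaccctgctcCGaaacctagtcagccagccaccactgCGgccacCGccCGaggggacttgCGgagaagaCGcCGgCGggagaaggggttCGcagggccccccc
Col9a1: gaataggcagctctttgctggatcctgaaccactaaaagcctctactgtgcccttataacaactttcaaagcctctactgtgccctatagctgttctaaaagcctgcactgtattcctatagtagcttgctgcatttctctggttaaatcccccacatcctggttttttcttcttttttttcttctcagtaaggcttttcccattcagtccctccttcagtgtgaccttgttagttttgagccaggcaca
Hapln1: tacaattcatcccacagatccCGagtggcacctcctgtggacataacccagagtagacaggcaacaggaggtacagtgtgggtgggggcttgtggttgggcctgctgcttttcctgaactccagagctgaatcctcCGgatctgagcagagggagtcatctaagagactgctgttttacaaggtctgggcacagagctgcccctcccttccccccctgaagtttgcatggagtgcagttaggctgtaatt
Mgp: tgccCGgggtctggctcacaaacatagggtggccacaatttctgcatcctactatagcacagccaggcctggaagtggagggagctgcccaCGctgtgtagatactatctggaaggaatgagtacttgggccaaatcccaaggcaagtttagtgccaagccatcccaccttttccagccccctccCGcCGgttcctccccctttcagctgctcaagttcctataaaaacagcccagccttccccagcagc
Rrp12: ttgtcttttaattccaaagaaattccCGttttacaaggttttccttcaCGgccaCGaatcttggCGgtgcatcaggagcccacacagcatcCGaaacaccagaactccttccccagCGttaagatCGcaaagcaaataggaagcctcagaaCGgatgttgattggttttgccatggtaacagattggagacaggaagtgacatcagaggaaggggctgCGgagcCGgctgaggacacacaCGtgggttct

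These windows held 22 CG dinucleotides for Acan, 0 for Col9a1, 2 for Hapln1, 4 for Mgp and 11 for Rrp12. Over the 300 bases from 250 before to 50 after the TSS, the ratio of observed to expected CG was 0.728 for Acan, 0.00 for Col9a1, 0.136 for Hapln1, 0.209 for Mgp and 0.753 for Rrp12. The letters TATAAA, the core of the TATA box that positions transcription at many regulated genes, began 30 bases before the Mgp TSS. They began 40 to 20 bases before the TSS in 5 of the 299 promoters (1.67%), among them Igfbp4, Mgp, Prkg2 and Rnf39, beside 2.49% of all promoters and 0.585% of shared promoters. Igfbp4 and Rnf39 were named here after their values were seen.

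Chondrocyte-acetylated promoters were poorer in CpG than shared promoters. The median CpG ratio was 0.619 in the 299 and 0.813 in shared promoters, and 140 of the 299 (46.8%) were CpG rich, defined as a ratio of at least 0.6 with at least 50% GC in the 300 bases, beside 77.6% of shared promoters and 44.7% of all. The cartilage matrix genes stood lower still, with a median of 0.215 over 18 promoters and 5 CpG rich (27.8%), near the median of 0.247 over the 8581 promoters unmarked in both cell types. The remaining 281 chondrocyte-acetylated promoters had a median of 0.640. The GC box GGGCGG was found on either strand in 46.2% of the 299, beside 68.2% of shared and 46.1% of all promoters. The ETS site CCGGAAG was found in 8.70%, beside 22.1% and 11.2%, and the AP-1 site TGANTCA in 8.03%, beside 3.81% and 6.97%. The SOX core AACAAT, a short form of the site bound by Sox family proteins, was found in 6.69%, beside 5.44% of shared and 9.76% of all promoters, so it stood between these sets. All motifs were searched on both strands. Both GGGCGG and the ETS site CCGGAAG hold a CG, so that their shares move with CpG content.

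**Figure D1:**
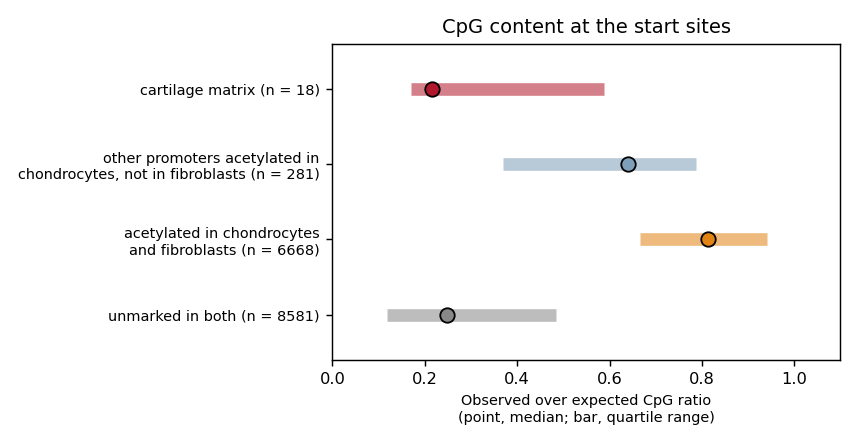
The observed over expected CpG ratio in 300 bases around the TSS is plotted on the horizontal axis for 4 sets of promoters, with the median as a point and the quartiles as a bar. The 18 cartilage matrix promoters have a median of 0.215, the other 281 chondrocyte-acetylated promoters 0.640, the 6668 shared promoters 0.813 and the 8581 unmarked promoters 0.247.

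Nearly all of the 299 promoters were marked in the chondrocyte libraries that the rule had not used. H3K4me2 peaks reached 276 of them (92.3%, 88.7 to 95.1), beside 66.3% of all promoters and 98.4% of shared promoters. WT H3K27ac reached 282 (94.3%, 91.1 to 96.7), beside 50% of all and 99.8% of shared promoters. The deletion list reached 258 (86.3%, 81.9 to 90.0), beside 47.1% of all and 99.4% of shared promoters. All 3 lists marked 237, and 1 promoter had none of the 3, that of Synpo, for the actin-binding protein synaptopodin, which ranked in the last part of both replicate lists (top 95.7% and top 98.2%). All 258 promoters with a deletion peak had a WT peak too, as did 8523 of the 8524 with a deletion peak among all promoters. The intervals for the 299 lay below those for shared promoters in each of the 3 lists.

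**Figure D2:**
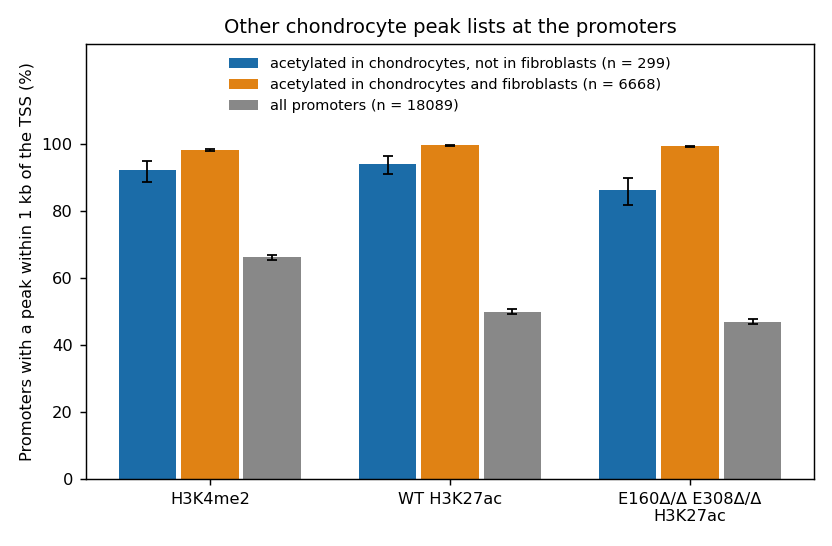
The share of promoters with a peak within 1 kb of the TSS is plotted in percent for H3K4me2, WT H3K27ac and E160Δ/Δ E308Δ/Δ H3K27ac, in 3 sets of promoters, with exact binomial 95% intervals as error bars. The 299 chondrocyte-acetylated promoters stand at 92.3%, 94.3% and 86.3%, below the 6668 shared promoters and above all 18089.

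The peaks themselves were weaker than at shared promoters. Peaks were ranked by score within their own list, so that the highest-scoring peaks have the lowest percentages. Where several peaks of a list reached a promoter, the rank, width and fold enrichment are those of the highest-scoring one. In WT, which the rule did not use, the median rank was top 31.6% at chondrocyte-acetylated and top 12.8% at shared promoters, and the median deposited fold enrichment was 11.1 and 22.6. In the deletion list the medians were top 44.7% and top 17.2%, and in the H3K4me2 list top 21.8% and top 15.7%. A WT peak lay over the TSS itself in 62.1% of chondrocyte-acetylated and in 90.7% of shared promoters with a WT peak. For H3K4me2 this was turned round, with the TSS under the peak in 79.3% and 61.0%. In the lists that chose the promoters, the median ranks were top 40.3% in replicate 1 and top 48.8% in replicate 2, and the ranks of a promoter in these replicates lay a median of 20.7 percentage points apart (quartiles 9.0 and 36.4). Differences in rank of that size between single promoters are therefore within the spread of the replicates.

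Distances to fibroblast peaks, here and below, are given for the 299 alone and without those of all promoters. The nearest fibroblast peak was over 5 kb from the TSS at 216 of the 299 (72.2%). It lay between 1003 bp and 1689 kb from the TSS, with a median of 18.4 kb. It was 1 to 2 kb away at 47 promoters, 2 to 5 kb at 36, 5 to 20 kb at 77, 20 to 100 kb at 101 and over 100 kb at 38. The replicate 1 peak at the promoter overlapped a fibroblast peak in 32 and none in 267 (89.3%). The members nearest to the limit were Cirbp at 1003 bp, Efna1 and Stmn1 at 1005 bp, Zscan10 at 1022 bp and Ankrd49 at 1060 bp. Just inside it, and so not among the 299, were Rasl11a at 976 bp, Hnrnpm at 963 bp, Nme3 at 940 bp, Atp6v1g2 at 925 bp and Mtfr1 at 917 bp. On the chondrocyte side, the farther of the replicates' peaks was 993 bp from the TSS at Zscan10, 974 bp at Dlx5, 970 bp at Ccdc8, 962 bp at Slc19a1 and 920 bp at AU018091. Promoters that missed by a little had their nearest replicate 1 peak at 1019 bp (Nr4a3), 1022 bp (Nrbp2), 1100 bp (Foxh1), 1108 bp (Apex2) and 1126 bp (Myom1). For replicate 2 the same held at Evc (1015 bp), Fgf21 (1027 bp), Acsm3 (1071 bp), Plxdc1 (1123 bp) and Rab20 (1144 bp).

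**Figure D3:**
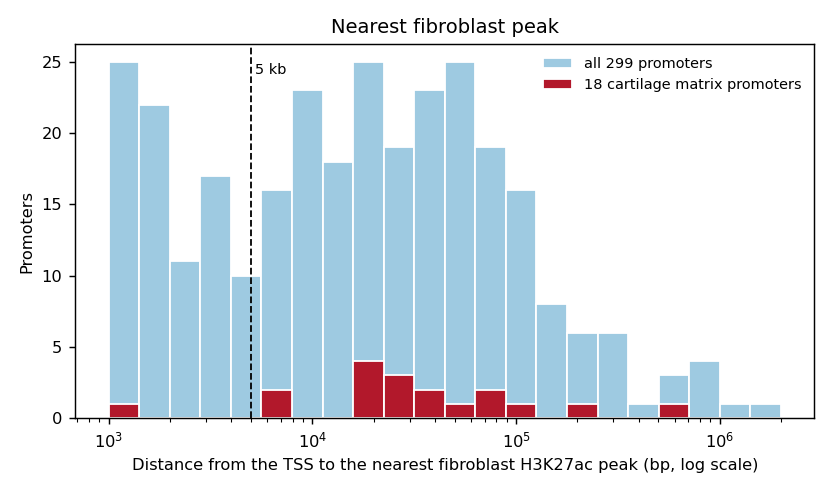
The distance from the TSS to the nearest fibroblast H3K27ac peak is plotted on a log axis in bp against the number of promoters, for all 299 and, in front, for the 18 cartilage matrix genes. Of the 299, 216 lie beyond 5 kb, and of the 18, 17 do.

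The start site used could differ between the builds. Once the local shift between builds was taken off, the mm9 and GRCm38 TSS lay over 1 kb apart for 33 of the 299. Replicate 1 and fibroblasts were thus read at one start and replicate 2 at another. Starts within 1 kb were found in 89.0% of the 299, beside 85.4% of all and 95.2% of shared promoters. At the other start, 20 of these 33 had a fibroblast peak, among them Cdk14, Hsp90aa1, Lats2, Lpxn, Cdkl3 and Bnip3. Lpxn, for the focal adhesion protein leupaxin, and Lats2, a kinase of the Hippo pathway, were among the highest-ranked members (top 0.611% and top 0.602% in replicate 2), with fibroblast peaks 1176 bp and 1116 bp away. Their place in the set rests on the start that was used. None of the 18 cartilage matrix genes was among the 33.

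Cartilage matrix genes were the most frequent of the gene groups looked up. Of 55 genes of that list with a compared promoter, 18 were chondrocyte-acetylated (32.7%, 20.7 to 46.7), beside 1.65% of all promoters. They were Acan, Clec3a, Col9a1, Col9a2, Col9a3, Col11a2, Col27a1, Comp, Crispld1, Cthrc1, Fmod, Hapln1, Matn3, Mgp, Scin, Scrg1, Susd5 and Ucma. Scin was counted because it is on the list, although its actin-severing product is not a matrix protein. All 18 had H3K4me2, and 16 had both a WT and a deletion peak. Of the other genes on the list, 10 were marked in both replicates and in fibroblasts, 6 in 1 replicate and not in fibroblasts, 1 in fibroblasts alone and 15 in none of the 3 libraries. This list was written with earlier results of these data known, and its share is a description.

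The type IX and type XI collagens coat and thicken the type II fibrils of cartilage. Col11a2 had the highest-ranked replicate 1 peak of the cartilage matrix genes (chr17:34175528-34179056, mm9, over the TSS). Its peak was in the top 1.47% of replicate 1 and 16.6% of replicate 2, in the top 27.6% of WT and 41.6% of the deletion list, and in the top 88.4% of H3K4me2. Col9a2 stood at 5.07%, 17.8%, 40.9%, 48.4% and 37.2% in the same order, and its replicate 1 peak ran from just before the TSS into the gene (chr4:120711830-120715358). Col9a3 stood at 13.0%, 23.6%, 53.0%, 58.6% and 79.1%, and Col9a1 at 17.5%, 31.2%, 39.6%, 54.7% and 61.8%. All 4 genes were ranked higher in replicate 1 than in any other list. Col27a1, for a further fibrillar collagen of cartilage, stood at 15.5%, 21.9%, 26.8%, 27.5% and 67.1%, and it alone of the 18 had a fibroblast peak within 5 kb, at 1.16 kb.

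The genes for aggrecan and the proteins that bind it showed the same order of lists in part. The Acan peak of replicate 1 (chr7:86198075-86202517) was 4443 bp wide and in the top 6.22%, and the promoter peaks of replicate 2, WT, deletion and H3K4me2 were in the top 13.3%, 36.2%, 56.9% and 84.4%. No fibroblast peak lay over the 61.6 kb of Acan, and the nearest was 95 kb from its TSS. Hapln1 had one of the widest replicate 1 peaks of the set, 6165 bp (chr13:89677408-89683572), and stood at 12.2%, 21.2%, 15.3%, 23% and 70.9% in replicate 1, replicate 2, WT, deletion and H3K4me2. Its nearest fibroblast peak was 198 kb away. Comp, the pentameric cartilage oligomeric matrix protein, stood at 32.0% and 36.4% in the replicates, 10.6% in WT, 9.81% in the deletion list and 46.2% in H3K4me2. Matn3, for the filament-forming matrilin-3, had a 5266 bp peak in replicate 1 and stood at 53.7%, 43.4%, 25.3%, 43.3% and 41.9%.

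Among the other genes of the cartilage matrix list, H3K4me2 ranked above both H3K27ac replicates at Scin, Clec3a, Cthrc1, Scrg1 and Fmod. Scin, for the actin-severing protein scinderin, was in the top 3.06% of H3K4me2 and at 17.3% and 87.5% of the replicates, with no WT and no deletion peak. Clec3a, for a cartilage-derived C-type lectin, was likewise marked by H3K4me2 (13.1%) and the replicates (35.3% and 74.7%) but by neither WT nor the deletion library. Cthrc1, a secreted collagen triple helix protein, stood at 8.49% in H3K4me2 and at 28.9% and 53.2% in the replicates, and Scrg1 at 9.65%, 12.2% and 53.2%. Mgp stood at 12.3%, 10.3% and 48.8%. Ucma, for a Gla protein of resting chondrocytes, stood at 59.0%, 34.7% and 31.7%, and Susd5 at 19.3%, 6.47% and 19.6%. Fmod, for the collagen-binding proteoglycan fibromodulin, stood at 42.3%, 53.0% and 59.8%, and Crispld1 at 38.7%, 21.0% and 51.7%. Over the 18 genes, the median rank was top 16.4% and 34.1% in the replicates, 31.8% in WT (16 genes), 44.9% in the deletion list (16 genes) and 42.1% in H3K4me2, beside 43.0%, 48.8%, 31.6%, 44.7% and 21.3% over the other members. The cartilage matrix genes thus ranked higher than the other members in the replicates that chose them, about level in WT and the deletion list, and lower in H3K4me2. Of the 18, 16 ranked higher in replicate 1 than in replicate 2, against 181 of all 299.

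**Figure D4:**
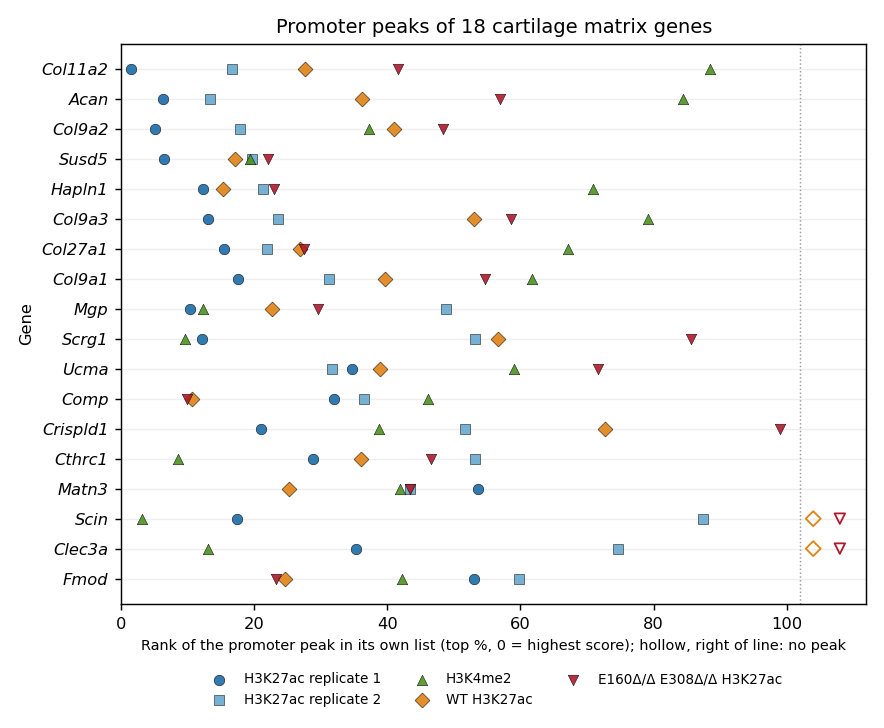
The rank of the promoter peak within its own list is plotted for the 18 cartilage matrix genes, in top percent with the highest scores at the left, with a symbol for each of 5 lists and hollow symbols where a list has no promoter peak. Replicate 1 symbols lie between 1.47% and 53.7%, H3K4me2 symbols between 3.06% and 88.4%, and Clec3a and Scin have no WT or deletion peak.

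Signalling genes of the growth plate made up a smaller share. Of 100 genes for cartilage growth factor signalling, 7 were chondrocyte-acetylated (7.0%, 2.86 to 13.9), and all 7 had WT and deletion peaks and no fibroblast peak within 5 kb. Fgfr3, the receptor that restrains growth plate chondrocytes, was among the 25 highest-ranked, at 17.8% and 12.3% in the replicates, 19.1% in WT and 23.8% in the deletion list, with its nearest H3K4me2 peak 3.84 kb away. Bmp5, a bone morphogenetic protein, had a 6588 bp peak in replicate 1 and stood at 21.1% and 18.7% in the replicates, 8.92% in WT and 9.41% in the deletion list, again without H3K4me2. Bmpr1b, a BMP receptor of cartilage condensations, was weak in replicate 1 (91.1%) and strong in H3K4me2 (4.17%). Smad9, a transcriptional effector of BMP receptors, stood at 14.1% and 34.6% in the replicates. Npr3, the clearance receptor for natriuretic peptides, stood at 21.6% and 36.4%, and Prkg2, a cGMP-dependent kinase that acts below the C-type natriuretic peptide, at 12.7% and 35.0%. The Wnt receptor gene Fzd9 had low ranks in the replicates (85.3% and 74.7%).

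Of 65 chondrocyte transcription factors looked up, 4 were chondrocyte-acetylated (6.15%, 1.70 to 15). Dlx5, a homeodomain factor of skeletal cells, stood at 33.3% and 39.9% in the replicates and 20.3% in WT. Runx3 was weak throughout, at 66.4% and 84.7% in the replicates, 57.5% in WT and 93.1% in H3K4me2, with no deletion peak. Fosl2, an AP-1 subunit, and the forkhead gene Foxc2 were high in WT, at 0.584% and 6.51%, and lacked H3K4me2. The 299 genes were also sorted into roles by known function after their values had been seen, with 50 given no role. Of the 36 genes with a role in transcription or chromatin, 10 lacked H3K4me2, among them Tcf7l2, Meis2, Hes1, Scx, Hoxa7 and Hoxc6, against 13 of the other 263, a count that was not tested. All 36 had a WT peak.

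Promoters without H3K4me2 tended to lie under wide H3K27ac peaks. The lists differed in width, with promoter peaks of at most 8382 bp in H3K4me2 and up to 29892 bp in WT. Whether this bears on the missing H3K4me2 peaks was not tested. The 21 promoters with WT and deletion peaks and no H3K4me2 had a median WT peak width of 5779 bp, beside 1076 bp over all members with a WT peak, and a median WT fold enrichment of 24.9, beside 11.1. Where the WT peak was under 2 kb, 201 of 204 members had H3K4me2 (98.5%), and where it was at least 5 kb, 10 of 21 did (47.6%). In shared promoters these shares were 99.7% and 81.0% (124 of 153). The nearest H3K4me2 peak to the 23 unmarked members lay 1.30 to 28.9 kb away, with a median of 4.91 kb and 12 within 5 kb. Fosl2, Bmp5, Hoxa7, Lrp1 and Meis2 were 5 of the 10 members with the widest replicate 1 peaks, at 7620, 6588, 6577, 6386 and 5962 bp, and none had H3K4me2. Their WT peaks were 8188, 9324, 29892, 9423 and 21763 bp wide. Hoxa7 and Meis2 have their mm9 and GRCm38 starts over 1 kb apart. Tcf7l2, a nuclear partner of beta-catenin, combined a WT peak of 7312 bp in the top 0.890% with a deletion peak in the top 0.496% and no H3K4me2. Ppp1r1b, also among the 10 widest in replicate 1 at 5141 bp, had a WT peak of 1023 bp and no H3K4me2.

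The share of promoters without a fibroblast peak varied with WT peak width as well. Promoter peaks of the fibroblast list were at most 8239 bp wide, and whether this bears on the shares was not tested. Among promoters marked in both chondrocyte replicates, fibroblasts had no peak at 4.44% of those with a WT peak under 2 kb (204 of 4595), at 2.63% of those with 2 to 5 kb (57 of 2169), at 12.1% of those with at least 5 kb (21 of 174) and at 58.6% of those with no WT peak (17 of 29). The interval of the class of at least 5 kb, 7.63 to 17.9, lay above those of both narrower classes, 3.86 to 5.08 and 2.0 to 3.39.

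Collagen genes of bone and skin were among the wide ones. Col1a1 and Col1a2 encode type I collagen and Col3a1 type III, the fibrils of skin and other connective tissue, and all 3 were on the dermal fibroblast list. Of 50 genes on that list, 4 were chondrocyte-acetylated (8.0%, 2.22 to 19.2), Twist1 being the other, and 15 were marked in fibroblasts alone. The fibroblast list had no peak anywhere over the 16.8 kb of Col1a1 or the 38.2 kb of Col3a1, and 1 peak over Col1a2. The nearest fibroblast peaks to the starts were 21.2, 14.1 and 13.7 kb away in that order. WT peaks covered 95.1% of Col1a1, in the top 4.43% of the list, and deletion peaks 88.9%, while replicate 1 covered 9.60% and replicate 2 43.5%. Col1a2 was in the top 5.00% of WT and Col3a1 in the top 13.7%, against 32.8% and 66.7% in replicate 1. The absence of these genes from the fibroblast list goes against what is known of dermal fibroblasts. The paper itself reports fibroblast peaks at Col1a1 and high Col1a1 expression in these cells, so the deposited fibroblast list differs from its description. A promoter with no peak in this list may therefore still have carried the mark in fibroblasts, which applies to all 299. Twist1 was in the top 9.63% of WT and had its nearest fibroblast peak 82.8 kb away.

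Genes for proteases and for other matrix functions followed. Of 76 matrix proteases and inhibitors, 6 were chondrocyte-acetylated (7.89%, 2.95 to 16.4), and all 6 had H3K4me2, WT and deletion peaks and no fibroblast peak within 5 kb. Among them were Adamtsl3, Capn6, Cpxm2, Mmp16 and the protease inhibitor gene Serpine2. Mmp16, a membrane-bound metalloproteinase, had the most distant fibroblast peak of all 299, at 1689 kb, and stood at 35.5% and 35.7% in the replicates and 22.7% in WT. Serpine2 stood at 58.6% and 58.7% in the replicates and 23.3% in WT. Of 86 genes for collagen processing and secretion, 67 were shared and 1 was chondrocyte-acetylated, Loxl1, a lysyl oxidase that cross-links matrix fibres, at 58.8% and 9.64% in the replicates and 6.15% in WT. Of 68 genes for glycosaminoglycan synthesis and sulfation, 40 were shared and 0 were chondrocyte-acetylated (0 to 5.28%), an interval that holds the 1.65% of all promoters and lies below that of the cartilage matrix genes.

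The other lists held few of the 299 by count. Of 31 osteoblast and hypertrophic genes, 3 met the rule (9.68%, 2.04 to 25.8), Dlx5, Enpp1 and Panx3. The interval of this small list lies above the 1.65% of all promoters. Enpp1, which makes the mineralization inhibitor pyrophosphate, had H3K4me2 in the top 3.42% with no WT and no deletion peak. Panx3, for a channel protein of skeletal cells, had a WT and no deletion peak. Of 80 integrin and adhesion genes, 2 did. Itga10, the collagen-binding integrin subunit of chondrocytes, stood at 34.1% and 65.7% in the replicates and 4.61% in H3K4me2, and Itgb8 at 24.1%, 82.4% and 19.4%. Of 63 hypoxia and glycolysis genes, Bnip3 and Tpi1 met the rule, both with a fibroblast peak within 5 kb. Of 82 genes of the primary cilium, the intraflagellar transport genes Ift27, Ift122 and Ift140 did (3.66%, 0.761 to 10.3), and of 77 cell cycle genes the inhibitor Cdkn1a and Rfc5. From 49 neural and glial genes, S100b did, a calcium-binding protein made by chondrocytes as well as glia, in the top 4.48% and 16.6% of the replicates. Lists for skeletal muscle (45 genes), endothelium (30), blood (47), keratinocytes (37) and fat (25) held 0. The intervals of the integrin, hypoxia, cilium, cell cycle and neural lists hold the 1.65% of all promoters. So do those of the lists that held 0, with upper limits from 7.55% (blood) to 13.7% (fat). Their 0 is therefore not told apart from the share of all promoters.

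The 25 members of best mean rank over the replicates included 7 of the 18 cartilage matrix genes, Acan, Col9a2, Col9a3, Col11a2, Col27a1, Hapln1 and Susd5. Tmem88, for a membrane protein that binds Dishevelled, ranked first, at 5.43% and 0.868% in the replicates, 0.385% in WT and 0.785% in the deletion list, with a fibroblast peak 1.71 kb away that overlapped its replicate 1 peak. Transcriptional regulators were Tcf7l2, Tox, Id2, Sim2 and Eya1. Tox, an HMG-box gene, stood at 8.31% and 10.3% in the replicates and 1.62% in WT, with the nearest fibroblast peak 442 kb away. Eya1, a transcriptional coactivator, stood at 2.92% and 35.7%, with its nearest fibroblast peak 649 kb away. Acox2, a peroxisomal oxidase of bile acid intermediates, had the highest rank of all 299 in replicate 1 (1.40%) and stood at 23.4% in replicate 2, and its WT and deletion peaks stood at 43.5% and 69.8%. Sh3tc2, Cp for ceruloplasmin, Anxa3, S100b, Cdkl3, Bnip3, Fgfr3, Lpxn, Lats2 and the adjacent Tmc6 and Tmc8 made up the rest. Tmc6 and Tmc8 start 122 bp apart on opposite strands and share their peaks in replicate 1 and WT. In all, 13 such divergent pairs, with starts within 2 kb, accounted for 26 of the 299 genes. No share of such pairs over all promoters is given, so this is a description.

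By the roles given after the values were seen, 36 genes belonged to metabolism, 36 to signalling, 36 to transcription and chromatin, 27 to other secreted and matrix proteins, 26 to RNA and ribosome biogenesis, 17 to protein turnover and trafficking, 16 to channels and transporters, 14 to cell cycle and DNA repair, 12 to cytoskeleton and cilia and 11 to adhesion. RNA and ribosome genes such as Dkc1, Nhp2, Nop10 and Rrp12 had a median distance to the nearest fibroblast peak of 12.1 kb, cell cycle and DNA repair genes of 6.91 kb, and cartilage matrix genes of 30.4 kb. The shares of these genes with a WT peak were 26 of 26, 14 of 14 and 16 of 18. In the lists of genes used by most cells, 2 of 77 for the cell cycle and 4 of 165 ribosomal protein genes met the rule, near the 1.65% of all promoters, while 47 and 132 were shared.

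The loss of E160 and E308 left a peak at most of these promoters. Of 282 members with a WT peak, 258 had a deletion peak (91.5%, 87.6 to 94.5), beside 99.6% of shared and 94.2% of all promoters with a WT peak. A WT peak with no deletion peak was found at 24 of the 299 (8.03%, 5.21 to 11.7), beside 2.89% of all promoters. These were Adm2, AU018091, Cldn22, Cyb5r2, Dlec1, Fut1, Gm10277, Il17d, Isoc2a, Klf14, Klhl30, Kri1, Lats2, Lmcd1, Panx3, Prrt1, Rbpms2, Runx3, Slc19a3, Spink13, Urb1, Zdhhc13, Zscan10 and 2200002D01Rik. No cartilage matrix gene was among them. Their WT peaks were weak, with a median fold enrichment of 5.76 beside 11.6 at the 258. By WT fold enrichment, 36 of 53 members under 7 had a deletion peak (67.9%, 53.7 to 80.1), 131 of 136 from 7 to 14 (96.3%) and 91 of 93 of at least 14 (97.8%). In all promoters these shares were 50.8%, 96.1% and 99.8%. The 2 strong ones without a deletion peak, singled out after their values were seen, were Prrt1 and Gm10277, with a WT fold enrichment of 25.2 and 18.9. A deletion peak lay 1.04 and 1.17 kb from their starts, just outside the 1 kb. Zscan10, Lats2 and Klhl30, also picked after their values were seen, had one at 1.03, 1.28 and 1.575 kb. In all, 5 of the 24 had a deletion peak within 5 kb, and the median distance over the 24 was 18.4 kb.

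Where both libraries had a peak, the deletion peak was lower at most promoters, and by about the same ratio in every set. The ratio of deletion to WT fold enrichment had a median of 0.685 over the 258 (247 lower in the deletion list), 0.705 over 16 cartilage matrix genes (14 lower) and 0.692 over 6630 shared promoters. The highest-scoring WT and deletion peaks overlapped at 248 of the 258, and over these the median was 0.688 (237 lower). Each is a ratio between single libraries, with no replicate of either genotype. Among the matrix genes, the WT and deletion fold enrichments were 10.9 and 6.88 at Col11a2, 8.48 and 7.36 at Col9a2, 22.4 and 12.6 at Hapln1 and 14.6 and 8.15 at Matn3. Those of Comp were 21.2 and 20.7. At Acan the highest-scoring peaks were different ones, and the peaks over the TSS had 8.58 and 5.34. Fmod (11 and 13.3) and Col9a3 (5.65 and 6.02) were the matrix genes with a higher value in the deletion list.

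**Figure D5:**
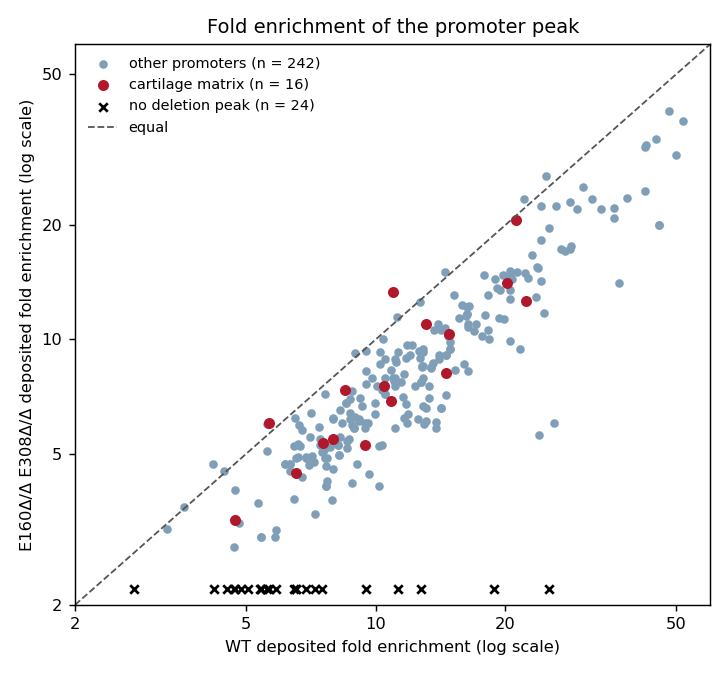
The deposited fold enrichment of the promoter peak in E160Δ/Δ E308Δ/Δ chondrocytes is plotted against that in WT, both on log axes, for 258 promoters with both peaks, with the 16 cartilage matrix genes in red and the 24 promoters without a deletion peak as crosses at the bottom. Each value is that of the highest-scoring peak, and at 10 of the 258, Acan among them, the peaks of the libraries do not overlap. Most points, 247 of 258, lie below the dashed line of equality.

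The 17 promoters with neither a WT nor a deletion peak were marked by H3K4me2 in 16 cases. They were Ankrd49, Ccdc8, Cd24a, Cdk14, Clec3a, Efna1, Enpp1, Exoc3l, Fuca2, Lgals3, Lpxn, Ppp1r3f, Scin, Synpo, Tlr6, Tmem177 and 4931408C20Rik. For 8 of them the starts in the annotations of mm9 and GRCm38 lay over 1 kb apart. The nearest WT peak was within 5 kb at 9 of the 17, and the median distance was 4.38 kb. Clec3a, Scin and Enpp1 were not of this kind, with starts at most 52 bp apart in the annotations and the nearest WT peaks at 21.6, 85.4 and 63.5 kb. Nor were Cd24a, Tmem177 and 4931408C20Rik, with starts under 1 kb apart and the nearest WT peaks at 25.4, 75.8 and 2058 kb.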

How the data were processed

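Peak lists of 6 samples were analysed, and an input library was not analysed here. Per the study's methods, the authors cleaned the reads with fastp, mapped them to mm9 with Bowtie2 2.4.4 and called peaks per library with MACS2 2.2.4 against input. Replicate 2 matched gene positions of GRCm38, and the build of each list was taken from its fit to gene starts. The deposited score of replicate 1, H3K4me2 and fibroblasts is the caller's. In replicate 2, WT and the deletion list the deposited score is 10 times −log10 q, beside the deposited fold enrichment over local background, −log10 p and −log10 q. Scores were used as ranks within a list, over chromosomes 1 to 19 and X, with ties averaged. Depth is unknown.

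Genes were 18089 of the 22380 protein-coding genes of GENCODE vM1 (mm9), matched by symbol and chromosome to RefSeq genes of GRCm38. No coordinate was converted. Promoter sequence came from the mm9 genome. The members and the gene lists were chosen with earlier results of these data known. Genes named with values were all members in a list, the 25 of best mean rank, the 10 with the widest replicate 1 peak, the member with none of the other marks and the 5 nearest each limit. One member that the rule names is not reported here. No test between groups was run. The rule was tested on simulated lists, and counts were checked against bedtools. Scripts ran in Python 3.11.15 with pandas 2.3.3 and numpy 2.4.6, intervals came from scipy 1.17.1, and plots from matplotlib 3.10.9.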

Additional observations from a re-analysis of the deposited data

Results flagged for a closer look

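Peaks outside chromosomes 1 to 19 and X were not used in any comparison. There were 17 in replicate 1, 14 in H3K4me2, 23 in WT and 17 in the deletion list, each above the 4 in the fibroblast control, while replicate 2 had 3, and numbers of peaks are not corrected for depth.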

How the results depend on the processing

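Of 69 values under 14 alternatives, 56 stayed within 1.5 times the count or inside the interval given above, and 13 moved. The count of cartilage matrix genes, 18, stayed between 12 and 21 in all 14. With the TSS itself under the peak, the shares fell to 77.0% for H3K4me2, 90.3% for WT and 68.6% for the deletion list. With the higher-scoring 50% of each list, 477 promoters met the rule and 85.5% had H3K4me2. With replicate 2 or replicate 1 alone, 655 and 556 promoters met it. In that order, H3K4me2 marked 64.9% and 94.2% of these, WT 59.7% and 77.0%, and the deletion list 53.0% and 65.3%. The annotations' starts lay over 1 kb apart at 249 of 356 promoters marked in replicate 2 but not in replicate 1 or fibroblasts. At promoters marked in replicate 1 but not in replicate 2 or fibroblasts, it was 58 of 257. Replicate 2 was there read at another start than the remaining lists, and how far this lowers the shares was not tested. Among alternatives added after seeing the data, leaving out WT peaks of at least 5 kb raised the H3K4me2 share to 95.7%. Matching genes renamed since mm9 gave 338, with Lect1, Mia1 and 3110079O15Rik (Snorc) as further matrix genes. Under the 10 alternatives that were not added later, 32 of the 299 were kept in every one. Of these, 8 were cartilage matrix genes: Acan, Col9a1, Col9a2, Col11a2, Comp, Hapln1, Susd5 and Ucma. The alternatives with replicate 2 or replicate 1 alone keep every member by definition, so they could not lose any. No paired analysis was possible because only 1 group had replicates. Depth is unknown, and no value rests on more than 2 libraries of a group.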
